A study of Mus musculus with 7 samples.

Results

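The 10 genes described here belong to the circadian clock: Arntl, Clock, Per1, Per2, Cry1, Nr1d1, Nr1d2, Dbp, Tef and Bhlhe40. They were taken by gene symbol from the deposited expression table, which holds 16047 genes, and all 10 were found. The libraries are 3′ RNA-seq of neutrophils, sorted as CD11b+Ly6CloCX3CR1-GFP-Ly6G+ cells from the livers of C57BL/6 mice 24 h after acetaminophen-induced liver injury (AILI). In 4 mice PBS was injected and in 3 mice the anti-CCR2 antibody MC-21, which leaves the liver deficient for infiltrating Ly6Chi monocytes; injections began 12 h before acetaminophen and were repeated every 24 h. By the study's methods the mice were males of 8 to 12 weeks, fasted for 12 h before acetaminophen, which all 7 mice received. Each library is 50000 cells of 1 liver. The strain label does not say whether these mice carried the Cx3cr1-GFP reporter that the sorting gate names. The clock time and light schedule of injection and sorting are not given in the sources used here, and each mouse was sampled once, so levels at 1 moment are compared and not a rhythm.

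The mammalian clock is a loop of transcription factors. The proteins of Arntl (BMAL1) and Clock bind E-box DNA together and activate Per and Cry genes, whose products then repress that pair. In a second loop, the nuclear receptors encoded by Nr1d1 and Nr1d2 (REV-ERB alpha and beta) repress Arntl and other genes through ROR elements. Dbp and Tef encode activators that bind D-box DNA, and Bhlhe40 (DEC1) encodes a repressor that competes for E-boxes. In neutrophils the clock is known for governing the daily ageing of circulating cells.

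The start regions of the genes were searched for the letters of clock elements. RefSeq windows of 300 bases (250 before the transcription start and 50 after it; build GRCm38.p6, 5′ to 3′ on the strand of the gene) were given for 8 of the 10 genes, in 13 windows. Capitals mark E-boxes (CACGTG), the variant CACGTT or its reverse complement AACGTG, and ROR elements (TAGGTCA or its reverse complement). The windows of Per1, Cry1, Nr1d1 and Arntl are shown because these genes stand in different arms of the loop and hold such an element, and that of Nfil3 because this clock gene outside the 10 is compared with them.
Per1, chr11:69098699-69098998, plus strand: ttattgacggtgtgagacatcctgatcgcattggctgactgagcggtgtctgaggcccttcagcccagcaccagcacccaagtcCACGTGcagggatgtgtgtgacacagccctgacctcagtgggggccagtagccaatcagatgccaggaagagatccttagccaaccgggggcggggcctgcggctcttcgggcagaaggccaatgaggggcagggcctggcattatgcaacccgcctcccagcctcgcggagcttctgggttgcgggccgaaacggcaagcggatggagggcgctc
Cry1, chr10:85185005-85185304, minus strand: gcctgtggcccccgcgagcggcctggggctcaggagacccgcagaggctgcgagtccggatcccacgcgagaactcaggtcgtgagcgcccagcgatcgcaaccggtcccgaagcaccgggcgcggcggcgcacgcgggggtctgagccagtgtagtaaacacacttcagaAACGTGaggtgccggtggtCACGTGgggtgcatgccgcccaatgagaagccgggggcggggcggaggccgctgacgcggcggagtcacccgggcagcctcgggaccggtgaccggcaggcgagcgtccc
Nr1d1, chr11:98775328-98775627, minus strand: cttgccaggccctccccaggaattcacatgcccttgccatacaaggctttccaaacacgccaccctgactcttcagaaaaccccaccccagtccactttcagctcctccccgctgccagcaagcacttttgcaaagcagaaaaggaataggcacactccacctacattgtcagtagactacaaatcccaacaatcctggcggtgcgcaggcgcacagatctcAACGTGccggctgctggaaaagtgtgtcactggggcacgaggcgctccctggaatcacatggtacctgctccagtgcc
Arntl, chr7:113207261-113207560, plus strand: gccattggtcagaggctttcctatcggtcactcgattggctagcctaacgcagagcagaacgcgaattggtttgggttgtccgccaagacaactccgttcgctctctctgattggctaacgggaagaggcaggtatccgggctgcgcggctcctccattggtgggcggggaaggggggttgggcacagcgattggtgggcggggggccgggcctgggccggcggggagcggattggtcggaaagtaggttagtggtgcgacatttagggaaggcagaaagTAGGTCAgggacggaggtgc
Nfil3, chr13:52980990-52981289, minus strand: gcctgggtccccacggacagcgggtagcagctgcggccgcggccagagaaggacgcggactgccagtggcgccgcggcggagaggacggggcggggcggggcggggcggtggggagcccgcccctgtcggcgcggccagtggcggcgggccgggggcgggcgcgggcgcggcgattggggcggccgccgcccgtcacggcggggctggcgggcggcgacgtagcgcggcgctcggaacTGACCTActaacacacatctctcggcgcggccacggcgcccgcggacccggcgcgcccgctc

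In these windows the Per1 E-box begins 166 bases before the start, and the Cry1 E-box 60 bases before it with the variant at 79 bases before it. The Nr1d1 variant begins 28 bases before the start. The marked TAGGTCA of Arntl begins 30 bases after the start, and the reverse complement in Nfil3 begins 12 bases before it. The search took exact letters only, and the near match taggtta in the same Arntl window is not marked. Both windows of Tef also hold CACGTG. In all, CACGTG was found in 4 of the 13 windows of clock genes and in 7.15% of all 32851 windows of the same length, CACGTT in 2 and in 4.68%, and TAGGTCA in 1 and in 2.61%. On both strands, the D-boxes TTATGTAA and TTACGTAA, the ROR element TGGGTCA, the cAMP element TGACGTCA and the glucocorticoid element (AGAACA and TGTTCT, 3 bases apart) were in 0 of the 13 windows. Of all windows, these motifs were in 0.938%, 0.119%, 3.98%, 1.79% and 0.00913%. A match is a description of letters and not of binding. Elements outside these windows or with other letters were not looked for, so a count of 0 does not mean that a gene lacks the element. Windows of the same gene can overlap, as those of Arntl do, so the 13 windows are not all separate.

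The levels of the clock genes in liver neutrophils spanned a wide range. On the RPKM scale, which divides reads by transcript length, Bhlhe40 (mean 36.5 RPKM over the 7 libraries) and Per1 (29.5) stood above Cry1 (7.38), Nr1d1 (4.78), Arntl (2.10) and Tef (1.64). Clock (0.712), Per2 (0.551), Nr1d2 (0.0975) and Dbp (0.0932) had means under 1 RPKM. The lowest library of Per1 (16.1 RPKM) lay above the highest of Cry1 (10.2), so the 2 leading genes were separated from the rest in every library. Between Bhlhe40 and Per1, between Cry1 and Nr1d1, between Nr1d1 and Arntl, between Arntl and Tef, and between Tef and Clock the ranges of the libraries overlapped. Because 3′ libraries read the ends of transcripts, dividing by whole length lowers long genes, and in estimated RPM, reads scaled to library depth and not divided by length, the order differed: Per1 (138) came before Bhlhe40 (114), and Tef (7.20) and Clock (6.15) before or level with Arntl (6.15). The 2 genes under 0.1 RPKM rested on 11 reads (Nr1d2) and about 4 reads (Dbp) in all 7 libraries together.

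**Figure D1:**
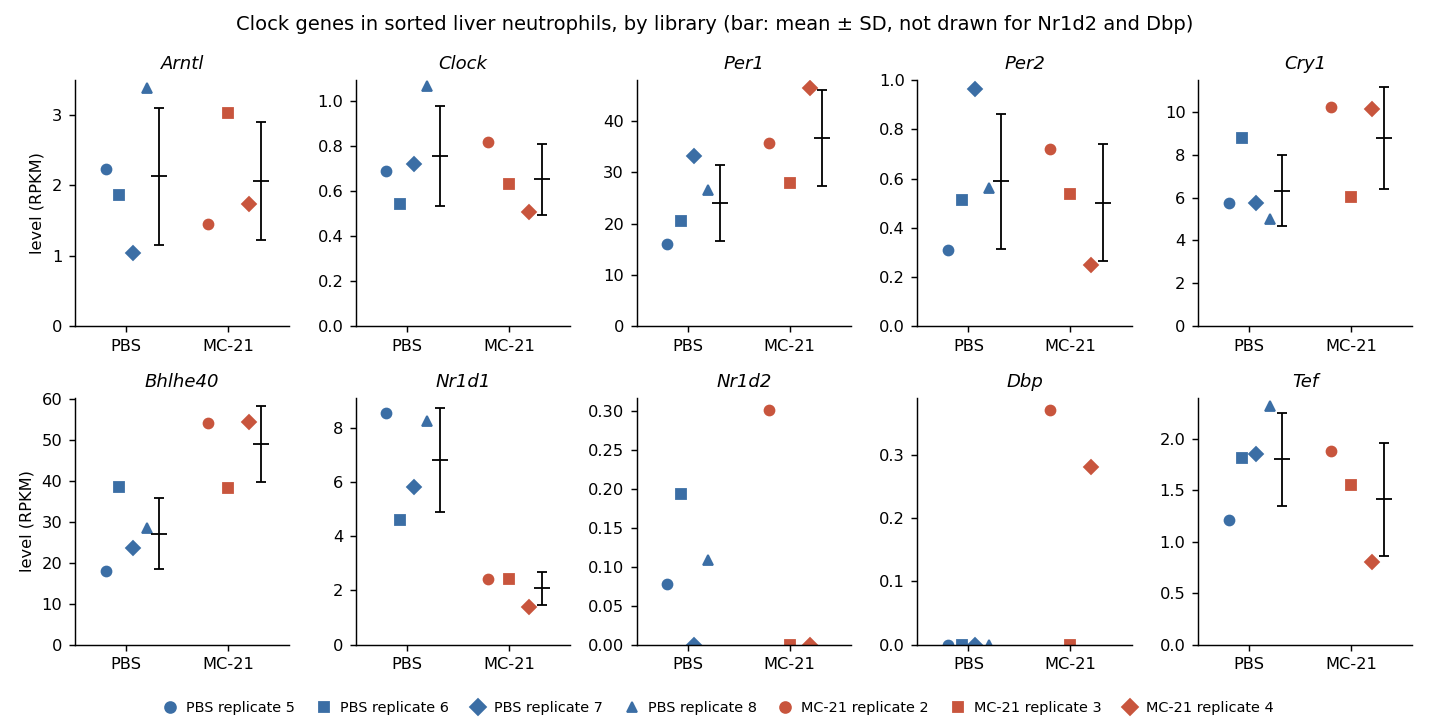
Level in RPKM of each clock gene in each library (PBS blue, n = 4; MC-21 red, n = 3; the vertical axis differs between panels), with the mean ± SD beside the points except for Nr1d2 and Dbp. The Nr1d1 points of PBS (4.60 to 8.57 RPKM) all lie above those of MC-21 (1.38 to 2.43 RPKM), while in the other 9 genes the groups overlap.

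The question of the comparison is how neutrophils of monocyte-deficient livers differ from those of livers with monocytes. The clearest difference among the clock genes was in Nr1d1, which was lower in every MC-21 library, whereas Bhlhe40, Per1 and Cry1 had higher means in MC-21 neutrophils and Arntl was level. The test covered the 9594 genes whose mean over the libraries was 1 RPKM or more, and no clock gene passed it after adjustment over all of them. In limma's fit on log2(RPKM + 1), 0 of the 6 members that reached this level had an adjusted p under 0.05, against 0.625% of all genes tested. An unadjusted p under 0.05 was reached by 3 of the 6 (Nr1d1, Bhlhe40 and Per1), against 14.7% of all genes. Both an unadjusted p under 0.05 and a difference of 2-fold or more were found in 1 of the 6 (Nr1d1), against 2.70%. PBS and MC-21 libraries were fully separated in 1 of the 6 (Nr1d1), against 13.3%. By direction, 10.2% of all genes were separated and lower in MC-21 neutrophils, as Nr1d1 was, and 3.10% were separated and higher. Lower values in MC-21 neutrophils were the more common, with a negative log2 fold change in 69.4% of all genes. The median log2 fold change (MC-21 minus PBS) was 0.20 over the 6 and -0.15 over all genes. Centring each library on its median raised every log2 fold change by 0.16.

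**Figure D2:**
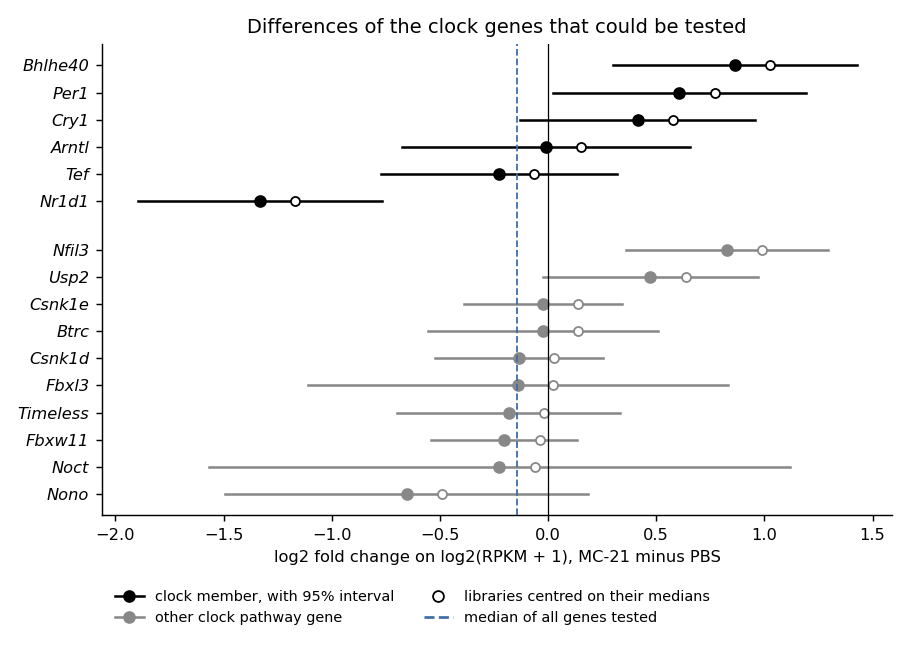
Log2 fold change, MC-21 minus PBS, on log2(RPKM + 1) of the 6 clock members (black) and 10 other clock pathway genes (grey) that could be tested, with 95% intervals from limma; open circles are the values with libraries centred on their medians. Nr1d1 (-1.33) lies furthest to the left, and the intervals of Nr1d1, Bhlhe40, Per1 and Nfil3 leave out 0.

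Arntl, the activator at the head of the loop, had 2.24, 1.86, 1.03 and 3.39 RPKM in PBS replicates 5 to 8 and 1.44, 3.02 and 1.73 RPKM in MC-21 replicates 2 to 4. The groups overlapped almost wholly. Its log2 fold change was -0.01 (SE 0.30, 95% interval -0.68 to 0.66, adjusted p = 0.989 from limma), an interval that reaches about equally far to both sides of 0. Clock, its partner, had 0.692, 0.545, 0.720 and 1.07 RPKM in PBS and 0.818, 0.633 and 0.507 RPKM in MC-21 neutrophils. Its libraries held between 9 and 37 estimated reads, about as many as those of Arntl (8 to 39), but over a transcript of 8645 bases its mean was under the limit for the test. The groups of Clock overlapped.

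Per1, a repressor gene of the first loop, lies on chromosome 11 from 68908719 to 68923462 (mm9). It had 16.1, 20.5, 33.1 and 26.6 RPKM in PBS neutrophils and 35.7, 27.8 and 46.5 RPKM in MC-21 neutrophils. MC-21 replicates 2 and 4 were the highest of the 7 libraries, and MC-21 replicate 3 lay inside the PBS range. Means were 24.1 ± 7.41 RPKM (SD, n = 4) and 36.7 ± 9.40 RPKM (SD, n = 3), and the log2 fold change was 0.61 (SE 0.26, 95% interval 0.02 to 1.19, unadjusted p = 0.0435, adjusted p = 0.327 from limma). Under the other settings its unadjusted p was between 0.0141 and 0.164. Per2, its paralog, had 0.310, 0.514, 0.966 and 0.562 RPKM in PBS and 0.719, 0.538 and 0.246 RPKM in MC-21 neutrophils, from 4 to 15 reads a library. The groups of Per2 overlapped, and it was under the limit for the test.

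Cry1, whose product represses together with the Per proteins, had 5.76, 8.76, 5.73 and 5.02 RPKM in PBS neutrophils and 10.2, 6.04 and 10.1 RPKM in MC-21 neutrophils. As for Per1, MC-21 replicates 2 and 4 were highest and MC-21 replicate 3 lay inside the PBS range. The log2 fold change of Cry1 was 0.41 (SE 0.24, 95% interval -0.13 to 0.96, unadjusted p = 0.120, adjusted p = 0.468 from limma). Under the other settings its unadjusted p was between 0.0276 and 0.309. MC-21 replicate 3 was also the shallowest library, with 29 estimated reads of Cry1.

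Bhlhe40, on chromosome 6 from 108610623 to 108616919 (mm9), had the highest RPKM of the clock genes. It had 18.0, 38.5, 23.6 and 28.5 RPKM in PBS neutrophils and 54.1, 38.3 and 54.5 RPKM in MC-21 neutrophils. The groups touched at 1 point only, where PBS replicate 6 and MC-21 replicate 3 had nearly the same level. Means were 27.1 ± 8.69 RPKM (SD, n = 4) and 49.0 ± 9.23 RPKM (SD, n = 3). The log2 fold change was 0.86 (SE 0.25, 95% interval 0.30 to 1.43, unadjusted p = 0.00679, adjusted p = 0.180 from limma). Leaving out single libraries moved it between 0.69 and 1.04, with an unadjusted p of at most 0.0268 under every setting tried.

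Nr1d1, the repressor of the second loop, lies on the minus strand of chromosome 11 from 98629246 to 98636647 (mm9). It had 8.57, 4.60, 5.80 and 8.26 RPKM in PBS replicates 5 to 8 and 2.41, 2.43 and 1.38 RPKM in MC-21 replicates 2 to 4. Every MC-21 library lay below every PBS library. Means were 6.81 ± 1.92 RPKM (SD, n = 4) and 2.07 ± 0.601 RPKM (SD, n = 3), which is 3.29-fold higher in PBS neutrophils on the RPKM scale. On log2(RPKM + 1), where low values are compressed, the log2 fold change was -1.33 (SE 0.25, 95% interval -1.90 to -0.77, unadjusted p = 4.2e-04, adjusted p = 0.0572 from limma). A two-sided exact permutation test of the log2 values gave p = 0.0286, the smallest that 4 libraries against 3 allow, and the same exact test of the RPKM values gave p = 0.0571. Without PBS replicate 6, the lowest of its group, the adjusted p was 0.0381, and under the other settings it was up to 0.188. The values rest on 64, 42, 42 and 89 estimated reads in PBS and 23, 11 and 10 in MC-21 neutrophils.

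The level of Nr1d1 cannot be fully separated from that of its neighbor. Thra, the gene of thyroid hormone receptor alpha, runs toward Nr1d1 on the opposite strand, and the annotated exons of the genes share 263 bases at their 3′ ends. Those bases are 53.9% of the 488-base last exon of Nr1d1, where 3′ libraries read. Strand handling by the authors is not given in the sources used here, so reads of the shared bases cannot be told apart. Thra had 8.68, 6.00, 5.47 and 9.39 RPKM in PBS neutrophils and 3.53, 4.40 and 3.32 RPKM in MC-21 neutrophils, and its groups did not overlap either. Its log2 fold change was -0.80 (SE 0.22, adjusted p = 0.167 from limma).

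Nr1d1 was also lower relative to Thra in MC-21 neutrophils. Of the estimated reads of both genes, Nr1d1 held 52.3, 46.0, 54.1 and 49.4% in PBS neutrophils and 43.1, 38.0 and 31.5% in MC-21 neutrophils. The share was 50.4 ± 3.54% (SD, n = 4) against 37.5 ± 5.79% (SD, n = 3), without overlap (two-sided exact permutation test, p = 0.0286). That p is the smallest that 4 libraries against 3 allow. The share was not a planned result and concerns the member with the clearest difference, so it is not independent of that difference. Both genes together gave 36.6 ± 9.76 estimated RPM in PBS (SD, n = 4) and 14.8 ± 2.78 in MC-21 neutrophils (SD, n = 3). The sum lay between 27.2 and 45.5 in PBS libraries and between 11.9 and 17.4 in MC-21 libraries (two-sided exact permutation test, p = 0.0571). If shared reads were counted for both genes, the sum holds them more than once.

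**Figure D3:**
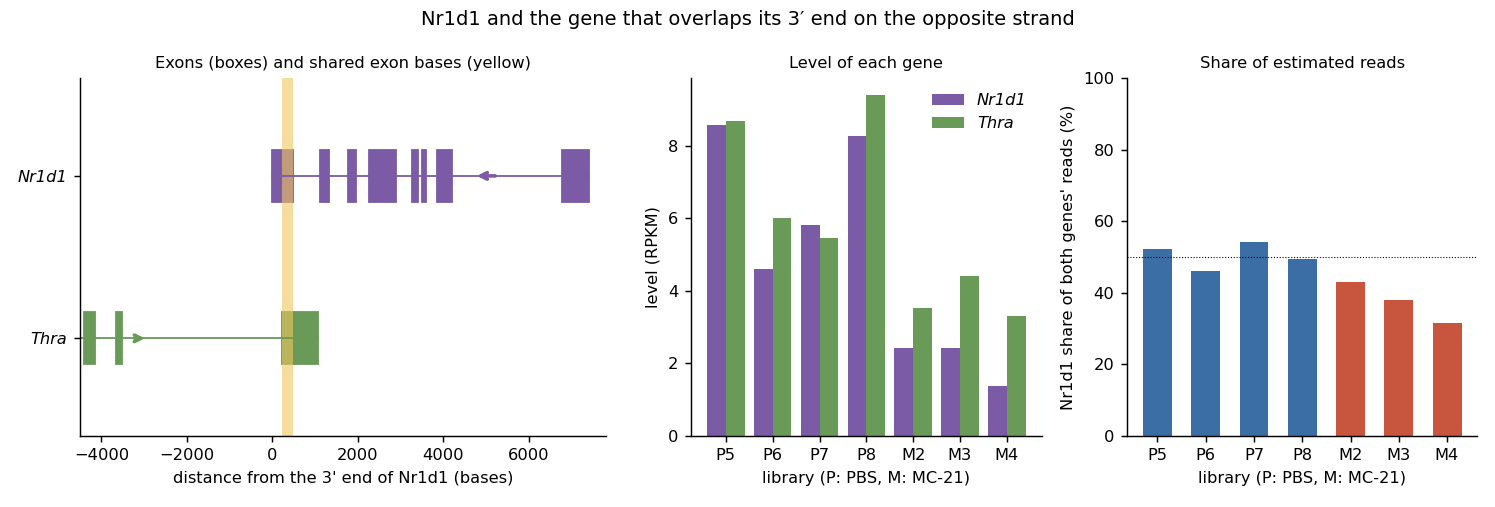
Left, exons of Nr1d1 and Thra by distance from the 3′ end of Nr1d1 in bases, with arrows for the direction of transcription and the 263 shared exon bases in yellow. Middle, RPKM of both genes in each library; right, the share of both genes' estimated reads held by Nr1d1, which is 46.0 to 54.1% in PBS and 31.5 to 43.1% in MC-21 libraries.

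Nr1d2, the second REV-ERB gene, was near the detection limit. It had 0.0779, 0.194, 0 and 0.109 RPKM in PBS neutrophils and 0.302, 0 and 0 RPKM in MC-21 neutrophils, from at most 5 reads a library, so no difference could be read from it.

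Of the output factors, Tef had 1.22, 1.82, 1.86 and 2.32 RPKM in PBS neutrophils and 1.88, 1.55 and 0.807 RPKM in MC-21 neutrophils. The groups overlapped, with MC-21 replicate 4 the lowest of all. The log2 fold change of Tef was -0.23 (SE 0.24, 95% interval -0.77 to 0.32, adjusted p = 0.702 from limma). Dbp had at most 9.31e-08 RPKM in the 4 PBS libraries and in MC-21 replicate 3, which is less than 1 read. It had 0.371 and 0.281 RPKM in MC-21 replicates 2 and 4. These are about 4 reads in all, and the last exon of Dbp lies wholly (100%) within exons of Sphk2 on the opposite strand, so its level is uncertain.

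Over the libraries the clock genes varied together only in part. With the group means removed, Pearson's r over the 7 libraries was between -0.68 and 0.74 among the 15 pairs of the 6 tested members. Cry1 and Bhlhe40 had the highest (0.74), and Nr1d1 was opposed to both Cry1 (-0.68) and Bhlhe40 (-0.66). All values of a pair come from the same libraries, with 7 points and 2 group means removed, and are given as a description.

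Of 22 other genes of the clock pathway, all in the table, 10 could be tested and 12 had means under 1 RPKM. In limma's fit 0 of the 10 had an adjusted p under 0.05, and 1 had an unadjusted p under 0.05, against the 14.7% of all genes given above. The median log2 fold change of the 10 was -0.14, close to the -0.15 of all genes. The 1 gene was Nfil3, which encodes a repressor that binds the same D-boxes as Dbp and Tef. Nfil3 had 20.7, 34.7, 28.7 and 31.7 RPKM in PBS neutrophils and 48.1, 43.8 and 63.7 RPKM in MC-21 neutrophils, and the groups did not overlap. Its log2 fold change was 0.83 (SE 0.21, 95% interval 0.36 to 1.29, unadjusted p = 0.00297, adjusted p = 0.130 from limma). Csnk1d and Csnk1e, the kinases that phosphorylate Per proteins, were the other highly expressed genes, with log2 fold changes of -0.13 (SE 0.17) and -0.02 (SE 0.16). None of the 22 was at 0 in every library.

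Other programs known to act on clock genes or on neutrophil ageing were counted beside them. Of 10 neutrophil ageing genes, 0 had an adjusted p under 0.05 and 2 had an unadjusted p under 0.05, both higher in MC-21 neutrophils (median log2 fold change 0.08). Of 7 glucocorticoid-induced genes tested, 0 passed after adjustment, and 2 were higher and 1 lower at an unadjusted p under 0.05 (median 0.00061). Of 9 hypoxia-induced genes, 4 had an unadjusted p under 0.05, all higher (median 0.30), and 1 of them, Hilpda, a lipid droplet gene, rose by 1.80 on the log2 scale (adjusted p = 0.0172 from limma). The call of Hilpda depended on the setting, with an adjusted p of up to 0.0830 with single libraries left out (without PBS replicate 8) and of 0.103 without a filter. These counts stand beside the 0.625% (adjusted) and 14.7% (unadjusted) of all genes, and the medians beside the -0.15 of all genes.

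**Figure D4:**
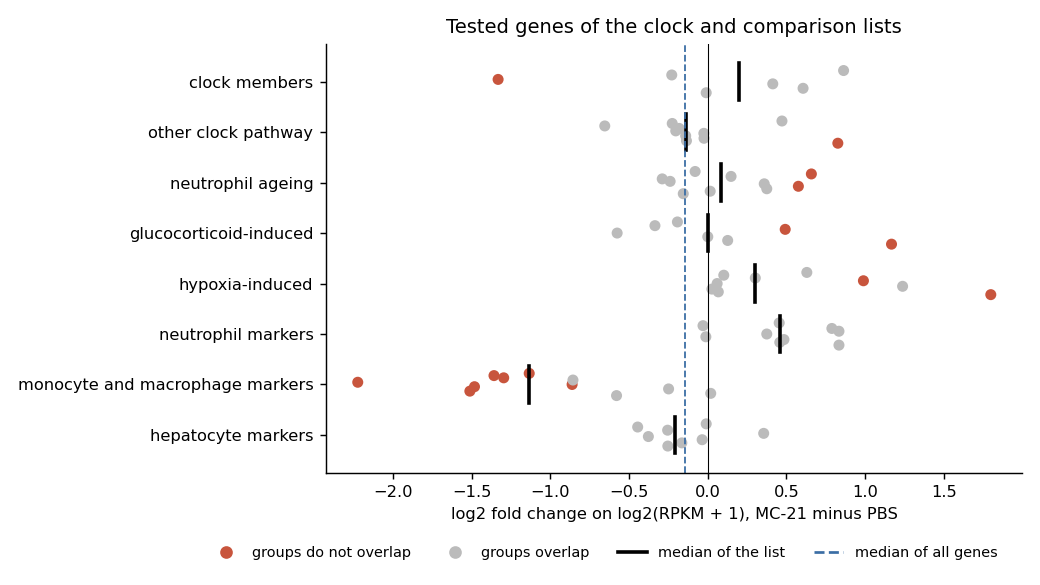
Log2 fold change, MC-21 minus PBS, on log2(RPKM + 1) of each tested gene (points) in the clock and comparison lists, with the median of each list as a black bar and the median of all genes (-0.15) as a dashed line; red points are genes whose groups do not overlap. The clock members spread from -1.33 to 0.86, and the monocyte and macrophage markers lie mostly to the left (median -1.13).

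The libraries carried the neutrophil label, and all 9 neutrophil markers were tested. Their summed level was 18419 to 31629 RPKM in PBS and 28392 to 41995 RPKM in MC-21 libraries. Most of it was S100a9, with means of 15925 RPKM in PBS and 21655 RPKM in MC-21 neutrophils. Of the 9, 3 were higher in MC-21 neutrophils at an unadjusted p under 0.05 from limma, against 14.7% of all genes, and 0 passed after adjustment. Their median log2 fold change was 0.46, against -0.15 for all genes. Most, but not all, monocyte and macrophage markers were lower in MC-21 neutrophils. Of 12 such genes 11 were tested, 5 were lower in MC-21 neutrophils with an adjusted p under 0.05 from limma (against 0.625% of all genes), and the summed level was 462 to 545 RPKM in PBS and 211 to 274 RPKM in MC-21 libraries. Of the 5, Ccr2, C1qa and C1qc had an adjusted p of up to 0.0931, 0.0762 and 0.105 with single libraries left out, each highest without PBS replicate 8. Fcgr1 had an adjusted p of 0.0587 from limma without a filter on low values. Only C1qb stayed under 0.05 in every setting tried (up to 0.0459). Ccr2 was at 0 in MC-21 replicate 3. At an unadjusted p under 0.05 from limma, 8 of the 11 were lower, against 14.7% of all genes. The 3 that did not pass were Adgre1, Ly6c2 and Ms4a7. Their log2 fold changes were 0.02 (SE 0.53), -0.25 (SE 0.19) and -0.86 (SE 0.49). Most of the summed level was C1qa, C1qb and C1qc, with PBS means of 117, 155 and 76.3 RPKM, so the sum mainly follows these genes. Kupffer cell markers were also lower at an unadjusted p under 0.05 in 2 of 3 genes tested (median log2 fold change -0.51), as were 1 of 2 T and NK cell markers and 1 of 2 B cell markers, with 0 past the adjusted threshold. Endothelial markers summed to 3670 to 6133 RPKM in PBS and 3900 to 5821 RPKM in MC-21 libraries. Most of these sums was Igfbp7 (means 3456 RPKM in PBS and 3253 RPKM in MC-21) and Clec4g (1125 and 980 RPKM). The log2 fold changes of the 7 endothelial markers lay between -0.54 and 0.31 (median -0.19), with 0 of 7 past an unadjusted p under 0.05. The 1 eosinophil marker tested did not pass either. Hepatocyte markers summed to 327 to 659 RPKM in PBS and 310 to 488 RPKM in MC-21 libraries, with 0 of 8 past an unadjusted p under 0.05. The part of these cells in the clock gene levels was not tested. In bulk RNA, fewer cells of a type and less RNA per cell cannot be told apart.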

How the data were processed

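Neutrophils of 7 livers (PBS, n = 4, replicates 5 to 8; MC-21, n = 3, replicates 2 to 4) were profiled by 3′ RNA-seq. The authors mapped reads to mm9 with HISAT 0.1.5 and obtained the deposited RPKM values in Partek Genomics Suite 6.6. Their annotation, strand setting, filters and handling of overlapping genes are not given in the sources used here.

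The depth was estimated from the steps between low RPKM values. The commonest estimate over 602 genes was taken, and 54.0% of these genes lay within 1% of it. By it 1 RPKM in a 1 kb transcript was 1.59 (MC-21 replicate 3) to 3.96 reads (PBS replicate 8). Estimated reads are RPKM times this number and the longest coding transcript in kb, and can be fractional. RPKM divides by whole length although reads come from 3′ ends.

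Differences were fitted with limma 3.58.1 (eBayes with a trend; R 4.3.3) on log2(RPKM + 1), a scale that understates changes of low genes, for the 9594 genes averaging 1 RPKM or more, with Benjamini-Hochberg adjustment over all. Of 16047 genes in the table, 10 are members. Alternatives were a pseudocount of 0.1, no filter, a limit of 5 RPKM, quantile normalization, median centring, no trend, and leaving out each library. The summing of Nr1d1 with Thra was added after the data were seen, and the share of Nr1d1 in their reads was not planned either. Gene models came from the annotation of mm9, and start windows, matched by symbol, from RefSeq. Members and lists were chosen with earlier results of these data known. Of the clock pathway, genes were named that had an unadjusted p under 0.05 or no overlap, or were among the 3 with the highest mean. Of the other lists, those with an adjusted p under 0.05 were named. Genes that made up most of a marker sum, and the tested monocyte and macrophage markers without an unadjusted p under 0.05, were named as well. Pax5, Epx, Prg2 and Il5ra of the marker lists were not found under these symbols in the expression table, so they were not analysed.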

Additional observations from a re-analysis of the deposited data

How the results depend on the processing

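No paired analysis was possible because the groups share no replicate number. The direction of Nr1d1, Bhlhe40, Per1, Cry1 and Tef was the same under every alternative in which they were fitted, and that of Nr1d1 also when it was summed with Thra (log2 fold change -1.23). Arntl changed sign, with 0.0030 at a pseudocount of 0.1, 0.17 with quantile normalization, 0.15 with median centring and -0.22 to 0.17 without each library in turn. Members with an adjusted p under 0.05 numbered 0 to 1 without each library, the 1 being Nr1d1 without PBS replicate 6. Members whose groups do not overlap numbered 0 with a mean of at least 5 RPKM, which leaves out Nr1d1. They numbered 2 with quantile normalization and with median centring, where Bhlhe40 joined Nr1d1. Without each library they numbered 1 to 4 (3 without PBS replicate 6, 2 without PBS replicate 7 and 4 without MC-21 replicate 3). With 1 library fewer, the groups of any gene separate more easily. The share of all genes without overlap was counted only for the reported fit (13.3%). The median log2 fold change of the members was -0.0055 without a filter, 0.61 at 5 RPKM, where 3 members remain, 0.37 with both scalings and 0.092 (without PBS replicate 7) to 0.26 without each library. Other clock genes with an unadjusted p under 0.05 numbered 2 with both scalings, where Usp2 joined Nfil3, and 1 to 2 without each library. Usp2 joined without PBS replicate 6 and without MC-21 replicate 3. Nono joined without MC-21 replicate 2, and its log2 fold change in the reported fit was -0.65 (SE 0.37), the lowest of the list. All genes with an adjusted p under 0.05, 60 as reported, numbered 6 without a filter and 9 (without PBS replicate 8) to 102 (without PBS replicate 6) without each library; they were 14 without PBS replicate 7 and 19, 35 and 18 without MC-21 replicates 2, 3 and 4. The causes were not tested. Members with an unadjusted p under 0.05, 3 as reported, numbered 2 to 4 over all alternatives. For this count too, the share of all genes was counted only for the reported fit (14.7%). Depth limits Per2, Nr1d2 and Dbp, whose libraries held at most 15 reads, while Clock, with about as many reads as Arntl, was under the limit on mean RPKM because of its long transcript (8645 bases).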

Other observations

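Usp2, a deubiquitinase gene of the clock pathway list chosen after its values were seen, had 4.78, 7.26, 5.40 and 6.04 RPKM in PBS neutrophils and 7.47, 6.88 and 11.6 RPKM in MC-21 neutrophils. The groups overlapped through PBS replicate 6 and MC-21 replicate 3, the same 2 libraries that met in Bhlhe40. Its log2 fold change was 0.47 (SE 0.22, adjusted p = 0.364 from limma). Sphk2, the gene whose exons cover the last exon of Dbp, had a mean of 16.1 ± 3.15 RPKM in the PBS libraries (SD, n = 4). In the MC-21 libraries its mean was 10.6 ± 3.33 RPKM (SD, n = 3).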
